A study of Mus musculus with 6 samples.

Results

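The genes described here are 31 genes of the kidney tubule, read in RNA sequencing libraries of monocytes, among 24047 gene rows in all. They were chosen by name as genes of the tubule with their counts in these libraries already known, and they were grouped by nephron segment and by the order of the 3 kidney libraries. Their levels, the difference between kidney and spleen and marrow, and the order of the kidney libraries are therefore given as a description, with no test. Of the 31 genes, 21 belong to the proximal tubule, 2 to the thick ascending limb (Umod and Slc12a1), 3 to the distal tubule (Slc12a3, Calb1 and Klk1), 1 to the collecting duct (Aqp2) and 4 to several segments (Fxyd2, Wfdc2, Atp1b1 and Cdh16).

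Both groups came from mice of the strain written C5/Bl6, aged 8 to 10 weeks, in which nephrotoxic nephritis, an antibody-driven injury of the glomerulus, had been induced, and the animals were killed on day 13. The kidney group holds 3 libraries of monocytes named double_pos (replicates 7, 8 and 22, here kidney 7, kidney 8 and kidney 22), enriched with a commercial kit and sorted. The other group holds 3 libraries from spleen and bone marrow named double (replicates 2, 24 and 26), for which no isolation is described, and the markers of neither name are given. The series used 10 mice, none of them without nephritis, and the labels do not say whether a library is 1 animal or a pool. A p-value here therefore speaks of the spread among these libraries, which may be technical. In bulk samples, more tubule cells or fragments and more tubule RNA per cell or in solution cannot be told apart.

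The nephron filters blood in the glomerulus and then recovers most of the filtrate along a tube of distinct segments. The proximal tubule takes back glucose, phosphate, amino acids and filtered protein and makes glucose, the thick ascending limb and distal tubule take back salt, and the collecting duct sets the final content of water and acid. Each segment is known by transporters and enzymes that blood cells mostly do not make, and such genes serve as markers of kidney tissue among other cells.

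Tubule transcripts were present in all 3 kidney libraries and nearly absent from the spleen and marrow libraries. Of the 31 genes, 17 had no count in any spleen and marrow library, and 23 had at most 3 counts there in all. In CPM (counts scaled to the adjusted library size), the 31 genes without Napsa summed to 1394 in kidney 7, 594 in kidney 8 and 3895 in kidney 22, against 29.3, 32.4 and 30.3 in spleen and marrow 2, 24 and 26. Napsa is set apart because it ran the other way, as given below. These sums were 0.148%, 0.0601% and 0.380% of all counts in the kidney libraries. For 26 of the 31 genes every kidney library lay above every spleen and marrow library, for 1 (Napsa) every kidney library lay below, and for 4 (Slc5a2, Slc12a1, Calb1 and Aqp2) the groups overlapped. Over all 16760 rows with a count, 14.8% lay above in this way and 13.5% below. Of the 31, 24 passed the filter on low counts, and edgeR put 21 of them higher and 1 lower in kidney. Over all 10626 genes tested, 7.83% were higher and 5.9% lower. The genes were selected on this difference, so nothing is read from these counts.

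**Figure D1:**
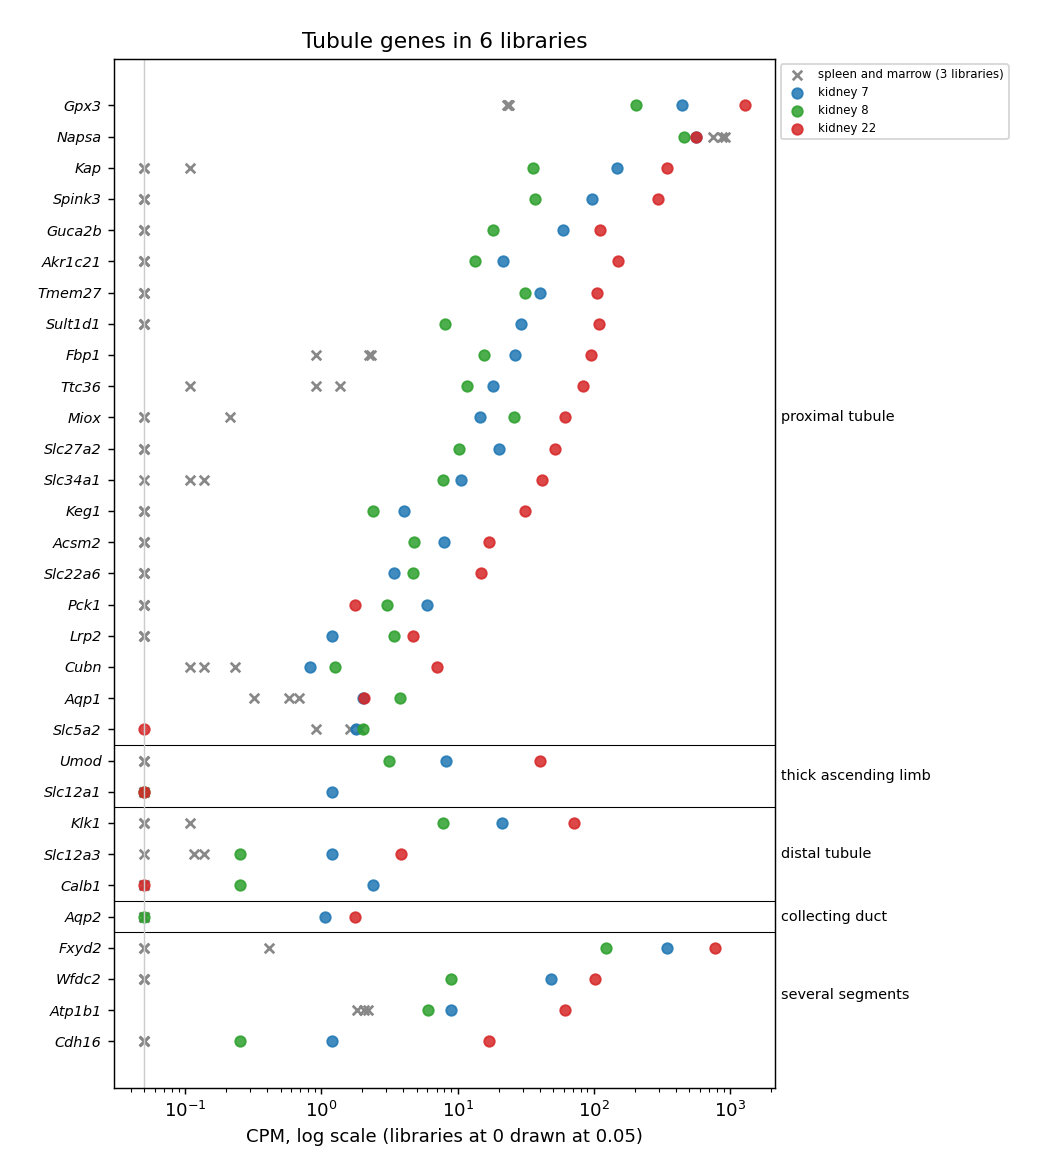
Level of each of the 31 tubule genes (CPM, log scale, libraries at 0 drawn at 0.05) in the 3 kidney libraries (circles) and the 3 spleen and marrow libraries (crosses), ordered by segment and then by mean kidney level. Kidney 22 is the highest kidney library for 25 genes, and the crosses of 17 genes all lie at 0.

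Of the proximal tubule genes, 4 that encode secreted proteins are described first. Gpx3, the glutathione peroxidase that the proximal tubule releases into plasma, stood at 445, 204 and 1288 CPM in kidney 7, 8 and 22 and at 23.8, 23.1 and 23.4 CPM in spleen and marrow 2, 24 and 26. The kidney libraries were spread widely and the others were nearly level, and the pooled ratio was 21.1. Kap, the kidney androgen-regulated protein, stood at 147, 35.9 and 347 CPM in kidney, and spleen and marrow held 1 count, a ratio of 3477 (95% interval 624 to 137400). Spink3, a secreted inhibitor of trypsin-like proteases, stood at 96.5, 37.0 and 297 CPM in kidney with no count elsewhere, so that kidney was at least 906-fold higher against a floor of 3 counts over the group. Guca2b, which encodes the gut and kidney peptide uroguanylin, stood at 59.4, 18.3 and 111 CPM in kidney with no count elsewhere (at least 438-fold higher). In all 4 of these genes kidney 22 was highest and kidney 8 lowest, and every kidney library lay above every spleen and marrow library. The intervals and the floor take in counting error alone, because reads without molecular identifiers are not independent molecules.

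Enzymes of the proximal tubule followed the same pattern with a few exceptions. Akr1c21, an aldo-keto reductase of steroids, stood at 21.5, 13.4 and 151 CPM in kidney 7, 8 and 22, with no count in spleen and marrow (at least 343-fold higher). Sult1d1, a sulfotransferase, stood at 29.3, 8.09 and 110 CPM with no count elsewhere (at least 293-fold higher). In both, kidney 22 was far above the other kidney libraries. Miox, which opens the ring of myo-inositol, stood at 14.6, 25.8 and 62.0 CPM with 2 counts in spleen and marrow, a ratio of 345 (95% interval 95.1 to 2857). Acsm2, which activates medium-chain fatty acids, stood at 7.94, 4.80 and 17.0 CPM with no count elsewhere. Here Miox had its lowest kidney level in kidney 7, unlike Acsm2, which was lowest in kidney 8. The glucose-making enzymes parted from each other. Fbp1, fructose bisphosphatase, stood at 26.5, 15.7 and 96.3 CPM in kidney and at 0.92, 2.33 and 2.25 CPM in spleen and marrow, a ratio of 18.9. Pck1, which makes phosphoenolpyruvate, stood at 5.93, 3.03 and 1.76 CPM in kidney (50, 24 and 6 counts) with none elsewhere. Pck1 was thus lowest in kidney 22, where Fbp1 was highest. The 95% counting interval of Pck1 in kidney 22 (0.647 to 3.835 CPM) overlapped that in kidney 8 (1.94 to 4.51). It lay below that in kidney 7 (4.40 to 7.81). Ttc36 had 18.1, 11.8 and 83.1 CPM in kidney and 19 counts in spleen and marrow, and Keg1 had 4.03, 2.40 and 31.1 CPM and none.

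Transporters and endocytic receptors of the proximal tubule were detected in kidney over a wide range of levels. Slc27a2, a fatty acid transport protein, stood at 20.0, 10.2 and 52.3 CPM in kidney 7, 8 and 22 with no count elsewhere (at least 183-fold higher). Tmem27, which encodes collectrin, a partner of amino acid transporters, stood at 40.4, 31.3 and 106 CPM with no count elsewhere (at least 406-fold higher). Slc34a1, the phosphate transporter of the brush border, stood at 10.7, 7.84 and 41.7 CPM with 2 counts in spleen and marrow, a ratio of 189 (95% interval 51.7 to 1565). All 3 were highest in kidney 22 and lowest in kidney 8. Slc22a6, an organic anion transporter, had 29, 37 and 51 counts in kidney 7, 8 and 22 and none elsewhere, and its level per depth was 4.36 times as high in kidney 22 as in kidney 7. Lrp2, the endocytic receptor megalin, stood at 1.19, 3.41 and 4.70 CPM (10, 27 and 16 counts), and its partner Cubn, cubilin, at 0.83, 1.26 and 7.05 CPM (7, 10 and 24 counts) with 4 counts in spleen and marrow. In these 3 genes kidney 7, not kidney 8, was the lowest kidney library. Aqp1, a water channel also found in red cells and endothelium, had 17, 30 and 7 counts in kidney and 13 in spleen and marrow, with its highest level in kidney 8. Slc5a2, the glucose transporter SGLT2, did not separate the groups, with 15, 16 and 0 counts in kidney and 8, 14 and 15 in spleen and marrow. A count of 0 in kidney 22 allows up to 0.881 CPM there.

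Napsa, which encodes the aspartic protease napsin A, was the exception in direction. It stood at 562, 463 and 560 CPM in kidney 7, 8 and 22 and at 756, 880 and 921 CPM in spleen and marrow 2, 24 and 26. Its groups did not overlap, with kidney below, at a ratio of 0.612. It is grouped with the proximal tubule because that segment is known to make it. Spleen and marrow held more of it than kidney did, and sums are therefore given with and without it.

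The promoters of the genes were read for their core elements. RefSeq promoter windows (build GRCm38.p6) were at hand for 24 of the 31 genes, in 27 windows, of which the pair for Wfdc2 differ in start by 1 base, and the 250 bases before the start of transcription were searched. The TATA box, which places the start of transcription at many strongly tissue-specific genes, was read as the letters TATAAA on both strands. It was in 4 of the 27 windows (14.8%), compared with 12.4% of all 32851 windows and 17.2% of 116 windows of the further tubule genes described below. In all 4 it lay on the sense strand within the last 40 bases, with Miox at the edge of that cut. There 2.31% of all windows and 6.03% of those of further tubule genes held it. The 4 genes were Kap (bases -31 to -26), Miox (-40 to -35), Acsm2 (-28 to -23) and Slc12a3 (-32 to -27), so 3 were proximal and 1 distal. CAAAGTC, a half-site of the nuclear receptor HNF4A that does not overlap the TATA letters, was searched on both strands and was in 0 of the 27 windows, 3.84% of all windows and 6.03% of those of further tubule genes. These are matches of letters and not shown binding sites, the search was added after the values were seen, and the part of these letters in the levels was not tested. The 250 bases before the start are printed for these 4 genes and for Gpx3, as an abundant gene without a match, with the TATA letters in capitals.
Kap, chr6:133853668-133853917, minus strand: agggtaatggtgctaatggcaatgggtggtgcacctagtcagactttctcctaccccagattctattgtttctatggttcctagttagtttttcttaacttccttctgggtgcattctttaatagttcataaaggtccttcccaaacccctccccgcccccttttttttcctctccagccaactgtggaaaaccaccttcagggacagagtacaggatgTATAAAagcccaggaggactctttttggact
Miox, chr15:89334223-89334472, plus strand: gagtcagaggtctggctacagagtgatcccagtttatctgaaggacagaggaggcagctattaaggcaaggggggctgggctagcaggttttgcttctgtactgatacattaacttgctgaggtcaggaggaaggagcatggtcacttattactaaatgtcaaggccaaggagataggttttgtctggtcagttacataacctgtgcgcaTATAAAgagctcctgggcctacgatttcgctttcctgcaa
Acsm2, chr7:119554090-119554339, plus strand: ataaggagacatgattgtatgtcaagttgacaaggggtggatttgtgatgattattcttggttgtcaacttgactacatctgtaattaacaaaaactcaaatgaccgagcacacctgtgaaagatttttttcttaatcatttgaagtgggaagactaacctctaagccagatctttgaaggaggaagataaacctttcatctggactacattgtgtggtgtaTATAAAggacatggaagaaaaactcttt
Slc12a3, chr8:94328958-94329207, plus strand: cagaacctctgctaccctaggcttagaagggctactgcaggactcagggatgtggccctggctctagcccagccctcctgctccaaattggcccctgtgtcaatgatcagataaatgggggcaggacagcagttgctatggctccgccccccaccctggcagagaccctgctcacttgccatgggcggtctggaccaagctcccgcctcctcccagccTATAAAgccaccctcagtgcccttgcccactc
Gpx3, chr11:54902604-54902853, plus strand: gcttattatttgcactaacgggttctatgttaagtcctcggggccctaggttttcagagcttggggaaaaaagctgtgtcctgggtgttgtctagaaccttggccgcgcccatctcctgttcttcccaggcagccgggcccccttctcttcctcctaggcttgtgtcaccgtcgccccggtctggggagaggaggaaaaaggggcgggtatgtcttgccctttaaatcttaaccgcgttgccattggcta
The levels of the 4 genes with a match ranged from Kap, at 177 FPKM on average in kidney, to Slc12a3, at 0.164, and Gpx3 without a match stood at 167.

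Of the thick ascending limb genes, Umod was well covered and Slc12a1 was not. Umod, which encodes uromodulin, the main protein of normal urine, stood at 8.18, 3.16 and 40.5 CPM in kidney 7, 8 and 22 with no count in spleen and marrow (at least 99.2-fold higher). Slc12a1, the sodium, potassium and chloride cotransporter that loop diuretics block, had 10 counts in kidney 7 and none in any other library. Its absence from kidney 8 and kidney 22 was not distinguishable at this depth from a level of up to 0.379 and 0.881 CPM.

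In the distal tubule, Klk1 carried most of the signal. Klk1, tissue kallikrein, stood at 21.2, 7.84 and 71.9 CPM in kidney 7, 8 and 22 with 1 count in spleen and marrow, a ratio of 624 (95% interval 111 to 24680). Mice have many close copies of this gene, and reads may be split among them, as may those of Akr1c21. Slc12a3, the thiazide-sensitive salt cotransporter, had 10, 2 and 13 counts in kidney and 2 in spleen and marrow, a ratio of 16.0 (95% interval 4.0 to 140). Calb1, a calcium-binding protein of the distal convoluted and connecting tubule, had 20, 2 and 0 counts in kidney and none elsewhere. Aqp2, the vasopressin-regulated water channel and the only gene here of the collecting duct, had 9, 0 and 6 counts in kidney and none elsewhere. Klk1 and Slc12a3 were highest in kidney 22 and Calb1 in kidney 7, and at so few counts the order of the last 3 genes rests on little.

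Genes shared by several segments followed the proximal order. Fxyd2, the gamma subunit of the sodium pump, was the most abundant tubule transcript per length, at 485, 181 and 785 FPKM (fragments scaled to transcript length and depth) in kidney 7, 8 and 22. In CPM it stood at 345, 123 and 773, and spleen and marrow held 3 counts, a ratio of 2785 (95% interval 953 to 13510). Wfdc2, a secreted protein with a protease inhibitor fold, stood at 48.2, 8.97 and 102 CPM with no count elsewhere (at least 352-fold higher). Kidney 8 was low for both, with 0.356 times the kidney 7 level for Fxyd2 and 0.186 times for Wfdc2. Cdh16, a kidney cadherin, had 10, 2 and 58 counts, so that kidney 22 was 14.4 times kidney 7 (95% interval 7.28 to 31.5). Atp1b1, the beta subunit of the same pump and present in most cells, stood at 9.01, 6.07 and 62.0 CPM in kidney, with 51 counts in spleen and marrow and a ratio of 8.43.

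The order kidney 22, then 7, then 8 was the most frequent one and occurred in every segment. It was found for 21 of the 31 genes (67.7%), for 17 of the 23 with at most 3 counts in spleen and marrow (73.9%), and for 18.2% of all genes tested. It was the order of 13 of 21 proximal genes, 1 of 2 thick limb genes, 2 of 3 distal genes, Aqp2 and all 4 genes of several segments. Miox, Slc22a6, Lrp2 and Cubn had the order kidney 22, 8, 7, and Pck1 and Calb1 had 7, 8, 22. Slc5a2 had 8, 7, 22, Aqp1 had 8, 22, 7 and Napsa had 7, 22, 8. Slc12a1 was tied at 0 in kidney 8 and kidney 22. Among the 23 genes, the median ratio of kidney 22 to kidney 7 was 3.08 (quartiles 2.13 and 4.11) and that of kidney 8 to kidney 7 was 0.384 (quartiles 0.228 and 0.615). The corresponding medians over all genes tested were 0.936 and 0.990. The 95% counting interval of the ratio lay above 1 for 19 of 23 genes in kidney 22 and below 1 for 16 of 23 in kidney 8. Each kidney library is a single sample, so these differences between libraries have no replicate check. Kidney 22 was also the shallowest library, with 3492391 counts against 7938223 and 7824387 in kidney 7 and kidney 8, and the part of depth was not tested.

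**Figure D2:**
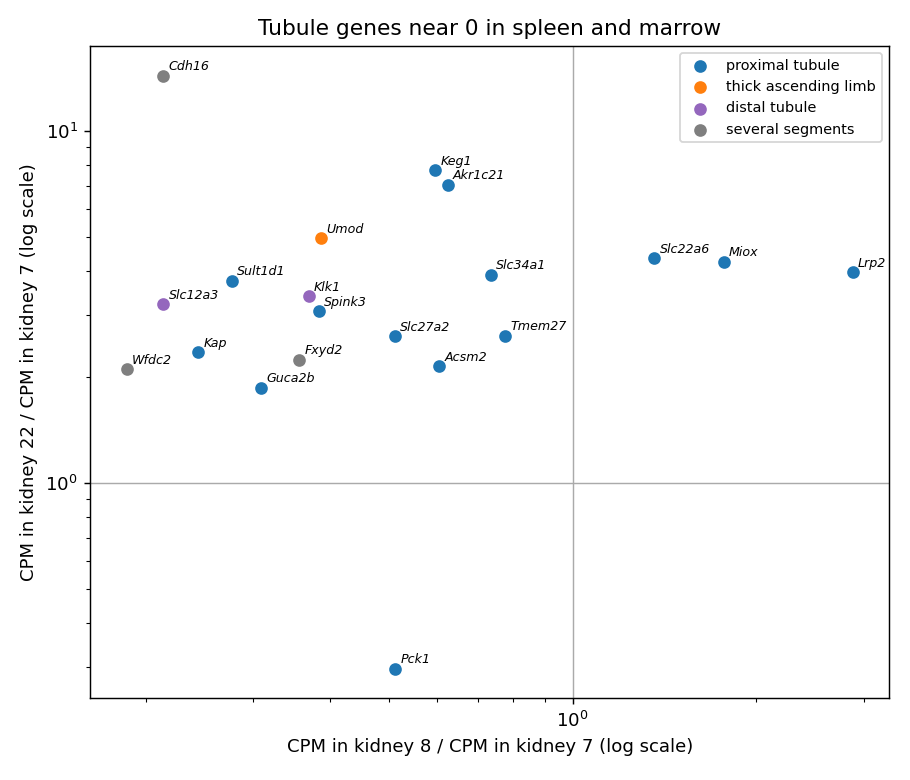
Ratio of the level in kidney 22 to that in kidney 7 (vertical, log scale) against the ratio of kidney 8 to kidney 7 (horizontal, log scale) for 20 of the 23 tubule genes with at most 3 counts in spleen and marrow. The 3 genes with a ratio of 0 (Slc12a1, Calb1 and Aqp2) are not drawn, most points lie at the upper left, Miox, Slc22a6 and Lrp2 lie to the right of 1, and Pck1 alone lies below 1 on the vertical axis.

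The makeup by segment was mostly proximal in each kidney library, in a list where 21 of the 31 genes are proximal. The share thus depends in part on the list. Proximal genes gave 77.6%, 85.8% and 76.0% of the summed CPM of the 31 genes in kidney 7, 8 and 22, and 68.6%, 74.8% and 72.5% without Napsa. Genes of several segments, chiefly Fxyd2, gave 20.6%, 13.1% and 21.4%. Without Napsa, distal genes stood at 2.59% (95% interval 2.25 to 2.97), 1.88% (1.45 to 2.39) and 2.68% (2.36 to 3.04) of the proximal sum in kidney 7, 8 and 22, and these intervals overlap. Thick ascending limb genes stood at 0.979% (0.774 to 1.22), 0.710% (0.459 to 1.05) and 1.44% (1.20 to 1.70) of it, and here the interval of kidney 22 lay above that of kidney 8. With Napsa in the proximal sum the distal values were 1.63% (1.42 to 1.87), 0.919% (0.710 to 1.17) and 2.24% (1.97 to 2.53), and these intervals do not overlap. The thick limb values were then 0.617% (0.488 to 0.769), 0.348% (0.225 to 0.514) and 1.20% (1.005 to 1.42), and the interval of kidney 22 lay above the others. Leaving out Napsa was chosen after seeing the data. A ratio between segments depends on which genes stand for each, since Klk1 alone gave most of the distal sum and Umod nearly all of the thick limb sum. Among further tubule genes with at most 3 counts in spleen and marrow, the shares of the further proximal sum were larger. In kidney 7, 8 and 22, thick limb genes stood at 6.30%, 6.07% and 5.12% of it, from 147, 87 and 130 counts. Ppp1r1a gave 75, 30 and 8 of these counts and Cldn10 gave 34, 53 and 81. No interval was computed for these further shares, so no order of the libraries is read from the thick limb values. Distal genes stood at 9.08%, 3.42% and 8.19%, intercalated cell genes at 13.62%, 3.49% and 11.85%, and principal cell genes at 0.0857%, 0.0698% and 0.118%. S100g gave 202, 38 and 183 of the 212, 49 and 208 distal counts. Atp6v1g3 gave 278, 47 and 239 of the 318, 50 and 301 intercalated counts.

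Per length, the levels of the genes fell with the length of their transcripts, which the division by length in FPKM builds in to some degree. Spearman's correlation across the 30 genes without Napsa, of mean kidney FPKM with transcript length, was -0.848. It was -0.674 across 48 further tubule genes with at least 10 counts in kidney and at most 3 in spleen and marrow, and -0.572 across 10212 tested genes in the kidney libraries, where genes are not independent replicates and share the same libraries. In the spleen and marrow libraries the 10212 genes gave -0.555. The 8 genes under 1000 bases had a median of 51.3 FPKM, the 16 from 1000 to 3000 bases 2.73 and the 6 over 3000 bases 0.124. Over all tested genes these medians were 82.9, 5.14 and 1.21. Median kidney counts, which are not divided by length, were 986.5, 263 and 33 for the 8, 16 and 6 genes. Fxyd2, Spink3 and Kap, at 632, 729 and 707 bases, stood at 484, 299 and 177 FPKM on average, while Lrp2 and Cubn, at 15460 and 11262 bases, stood at 0.0823 and 0.0862. Gpx3, at 1594 bases, stood high for its length at 167 FPKM. The part of RNA breakage or of the library chemistry in this relation was not tested.

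**Figure D3:**
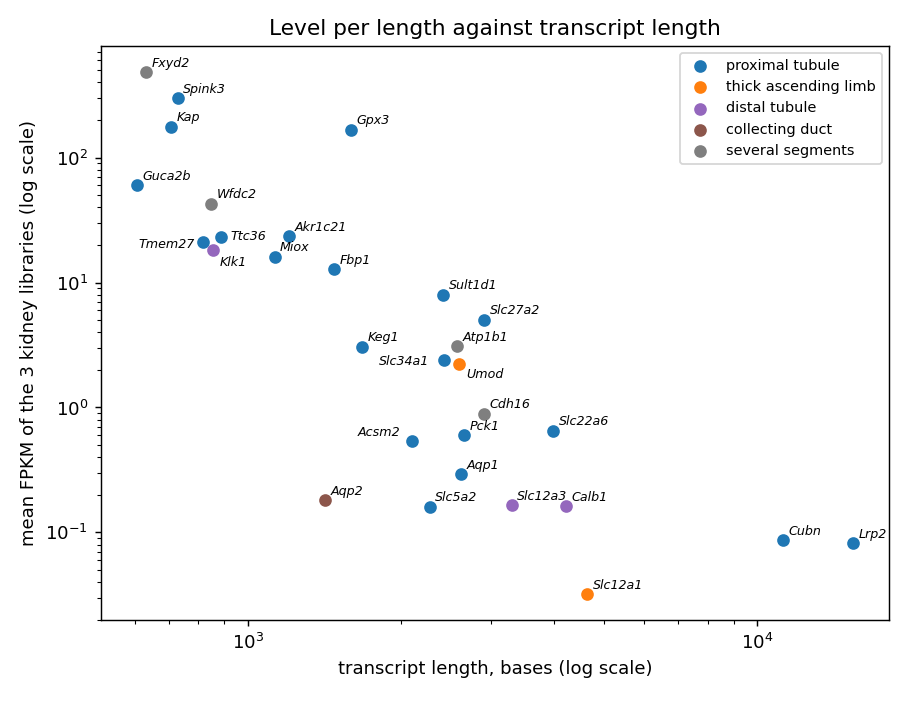
Mean FPKM of the 3 kidney libraries (log scale) against transcript length in bases (log scale) for the 30 tubule genes without Napsa, colored by segment. Short transcripts such as Fxyd2 and Spink3 lie highest, at 484 and 299 FPKM, and the longest, Lrp2 and Cubn, lie below 0.1.

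Further genes of the same segments, none of them among the 31, were read in the edgeR fit over all genes. Their lists, too, were drawn up with earlier results of these data known, so their calls are not independent support for the 31. Of 120 such genes, 28 were higher in kidney and 0 lower, beside 7.83% higher and 5.9% lower over all genes tested (29 and 0 at an unadjusted p under 0.05, 28 and 0 by DESeq2 and 23 and 0 by limma-voom), 35 passed the filter on low counts, and 15 had no count in any library. Of the 35, 16 had no count in spleen and marrow and passed the filter through kidney alone. Genes with few counts there, such as S100g, Atp6v1g3, Cldn10 and Pdzk1ip1, also reached the level of the filter in kidney alone. The p-values of such genes follow a selection through kidney. Of the 29 proximal transporter genes 11 were higher, of 35 proximal enzymes and factors 13, of 15 thick ascending limb genes 2, of 10 distal genes 1, of 9 principal cell genes 0, of 12 intercalated cell genes 1, and of 10 general epithelial genes 0. The last and the principal cell list had 0 calls by DESeq2 and limma-voom too, and 0 genes at an unadjusted edgeR p under 0.05. Without spleen and marrow 2, 24 or 26 the number higher was 11, 11 and 10, and without kidney 7, 8 or 22 it was 25, 36 and 30. Without kidney 22, 2 genes were lower (Haao and Scnn1a). The median log2 fold change over the 35 tested genes was 7.37, or 5.74 with those 16 genes set at their lower bound, against 0.05 over all tested genes, and this median describes the tested genes and not the list. Of the further genes with at least 10 counts in kidney and at most 3 in spleen and marrow, 38 of the 46 with a count in kidney 7 were higher in kidney 22 than in kidney 7 (median ratio 2.93), and the median ratio of kidney 8 to kidney 7 was 0.437. The order kidney 22, then 7, then 8 held for 32 of all 48 such genes (66.7%).

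**Figure D4:**
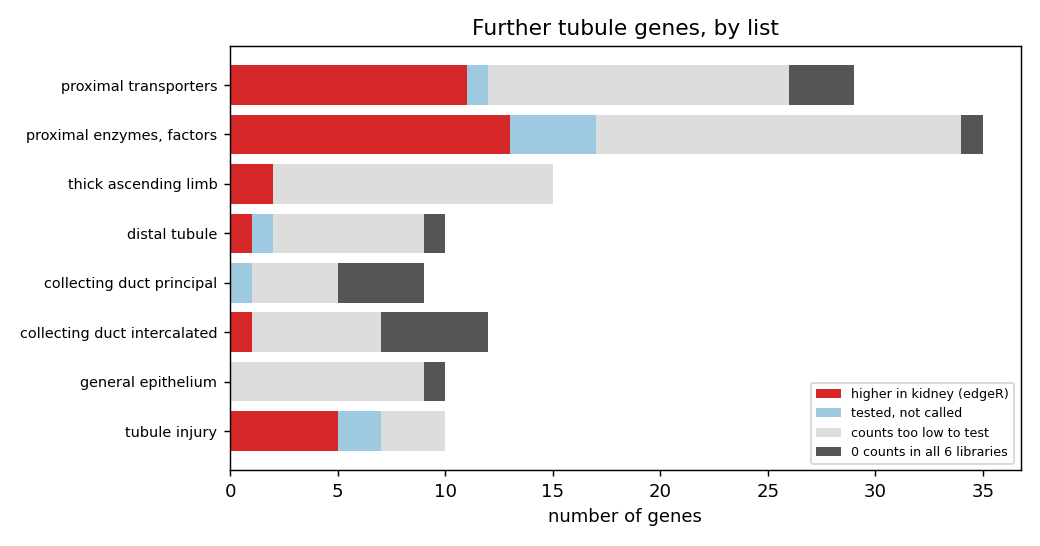
Number of further tubule genes in each list that edgeR called higher in kidney (red), tested without a call (blue), could not test for low counts (light grey) or that had no count in any library (dark grey). Calls are most frequent in the 2 proximal lists, with 11 of 29 and 13 of 35 genes.

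Among proximal genes outside the 31, Cyp4b1, a cytochrome P450, stood at 13.9, 29.8 and 42.0 CPM in kidney 7, 8 and 22 with no count elsewhere (at least 212-fold higher, edgeR adjusted p = 0.00214). Pdzk1ip1, a small membrane protein of the brush border, stood at 58.7, 24.3 and 164 CPM in kidney and at 0.46, 0.68 and 0.75 CPM in spleen and marrow, which makes 6.98 ± 0.83 (± SE) on the log2 scale in edgeR (adjusted p = 0.00214). Both genes rose, and kidney 22 was the highest library for each, while Cyp4b1 was lowest in kidney 7. Pdzk1ip1 missed the threshold with limma-voom, at adjusted p = 0.0635. Pdzk1, the scaffold of brush border transporters, had 76, 55 and 40 counts in kidney and 3 elsewhere (edgeR adjusted p = 0.00772), Slc17a1, a phosphate and anion transporter, had 59, 19 and 58 counts and 1 elsewhere (edgeR adjusted p = 0.00757), and Cyp4a14, a fatty acid hydroxylase with close copies, had 74, 31 and 36 counts and none elsewhere (edgeR adjusted p = 0.00613). The calls of Slc17a1 and Pdzk1 did not hold without spleen and marrow 2 or 26 (edgeR adjusted p from 0.0529 to 0.0568), and that of Slc17a1 did not hold without 24 (edgeR adjusted p = 0.0512). Cyp4b1 and Cyp4a14, with no count in spleen and marrow, passed the filter on low counts through kidney alone. The p-values of the genes in this paragraph follow selection on these data and are given as description only.

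Of the thick limb, distal and intercalated lists, 4 genes rose. Each had at most 2 counts in spleen and marrow, so their p-values, too, follow a selection through kidney. S100g, the calcium-binding protein calbindin D9k of the distal tubule, stood at 23.9, 4.80 and 53.7 CPM in kidney 7, 8 and 22 with 1 count in spleen and marrow, a ratio of 543 (95% interval 96.9 to 21480, edgeR adjusted p = 0.00503). Atp6v1g3, a subunit of the proton pump of intercalated cells, stood at 32.9, 5.94 and 70.2 CPM with 1 count elsewhere, a ratio of 724 (95% interval 129 to 28630, edgeR adjusted p = 0.00452). Both were lowest in kidney 8, at 0.201 and 0.180 times kidney 7. Neither passed limma-voom, at adjusted p = 0.0696 and 0.0833. In the thick limb list, Cldn10, a claudin of tight junctions, had 34, 53 and 81 counts in kidney and 2 elsewhere (edgeR adjusted p = 0.00935), and Ppp1r1a, a phosphatase inhibitor, had 75, 30 and 8 counts and 2 elsewhere (edgeR adjusted p = 0.00868). Neither call held when 1 library of spleen and marrow was left out, at edgeR adjusted p from 0.0518 to 0.0696. Principal cell genes gave no such signal, with 2, 1 and 3 counts in kidney 7, 8 and 22 over the 7 genes near 0 in spleen and marrow. Scnn1a, a subunit of the epithelial sodium channel, had 44, 49 and 49 counts in kidney and 96, 100 and 147 in spleen and marrow without a call (edgeR adjusted p = 0.363), and Avpr2, the vasopressin receptor, had 5, 2 and 0 counts in kidney and 9 elsewhere. Krt8 and Krt18, keratins of simple epithelia, had 6, 9 and 58 and 9, 0 and 26 counts in kidney and 1 and 14 elsewhere. Neither passed the filter on low counts, and most of their kidney counts lay in kidney 22.

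Genes known to rise in injured tubule were present as well. Of 10 such genes 7 were tested, and 5 were higher in kidney (Spp1, Clu, Fga, Fgb and Fgg), beside 7.83% of all genes tested. The 3 fibrinogen genes had no count in spleen and marrow and passed the filter through kidney alone, so their p-values follow that selection. The number was 3 without kidney 7 or without spleen and marrow 2, 24 or 26, and 1 gene, Lcn2, was lower without kidney 22. Lcn2 did not share the rise. It stood at 136, 219 and 2059 CPM in kidney 7, 8 and 22 and at 1546, 1548 and 1673 CPM in spleen and marrow 2, 24 and 26. Its pooled ratio was 0.314, the groups overlapped, and it was not called (edgeR adjusted p = 0.519). Fgg, the fibrinogen gamma chain, stood at 32.9, 10.5 and 89.9 CPM in kidney 7, 8 and 22 with no count elsewhere (at least 285-fold higher, edgeR adjusted p = 0.00872). Clu, clusterin, stood at 13.6, 21.2 and 70.5 CPM in kidney and 1.84, 1.23 and 0.75 CPM in spleen and marrow, which makes 4.75 ± 0.74 (± SE) on the log2 scale in edgeR (adjusted p = 0.00618). Fgg had the order of most tubule genes, and Clu had kidney 7 lowest. Spp1, osteopontin, which macrophages also make, rose by 6.46 ± 0.87 (± SE) on the log2 scale in edgeR (adjusted p = 0.00363) and was 4.06 times as high in kidney 22 as in kidney 7. Havcr1, which encodes KIM-1, a protein of damaged proximal cells, had 54, 4 and 60 counts in kidney and 1 elsewhere and was not tested. The series holds no kidney without nephritis, so these levels cannot be set against an uninjured tubule.

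Markers of other cells varied between the same kidney libraries in other orders. The 10 endothelial markers summed to 30.7, 947 and 20.6 CPM in kidney 7, 8 and 22 and to between 7.52 and 11.8 CPM in spleen and marrow, with Cdh5, Plvap, Tie1, Esam and Ehd3 at 0 in kidney 22 and Tie1 at 0 in kidney 7. The 10 mural and fibroblast markers summed to 15.8, 54.8 and 14.1 CPM against 11.5 to 13.2, with Pdgfra and Rgs5 at 0 counts in kidney 7 and kidney 22. The 8 podocyte markers summed to 82.0, 164 and 61.7 CPM against 54.2 to 74.2. Ptpro, which leukocytes also make, gave 627, 539 and 190 counts of that list in kidney 7, 8 and 22 and 467, 490 and 677 in spleen and marrow 2, 24 and 26. Podxl had 14, 419 and 4 counts in the kidney libraries, Synpo 9, 110 and 0 and Clic5 6, 156 and 0, all highest in kidney 8, while Nphs1 had 0, 1 and 4. These genes were picked out after their values were seen. The 8 granulocyte markers summed to 268, 1273 and 14390 CPM against 8236 to 10290. The library highest in tubule transcripts, kidney 22, was thus also the highest in granulocyte transcripts among the kidney libraries, and kidney 8, the lowest in tubule transcripts, was the highest in endothelial ones. The 10 monocyte markers, among them Ly6c2 and Ccr2, summed to between 34480 and 36880 CPM in the kidney libraries and to 44730, 56910 and 61730 CPM in spleen and marrow 2, 24 and 26, so that every kidney sum lay below. Gene by gene, every kidney library lay above for 7 of the 10 markers and below for 2, and 1 overlapped. Over all rows with a count, 14.8% lay above in this way and 13.5% below. The part of these other cells in the tubule levels was not tested.

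**Figure D5:**
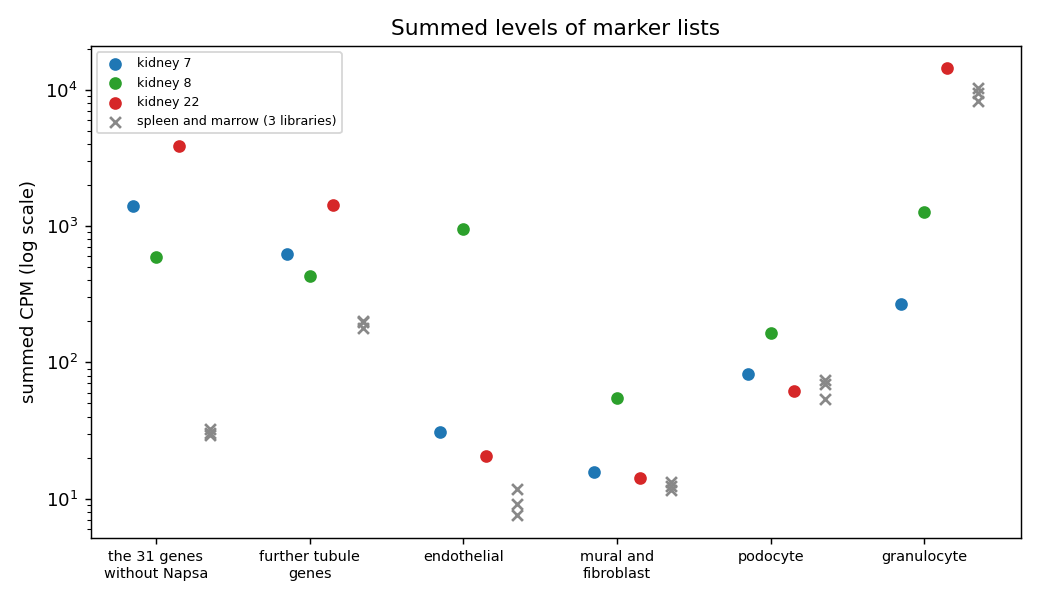
Summed CPM (log scale) of the 31 tubule genes without Napsa, of the further tubule genes and of 4 marker lists in kidney 7, 8 and 22 (circles) and in the 3 spleen and marrow libraries (crosses). Both tubule sums are highest in kidney 22 and lowest among the kidney libraries in kidney 8, where the endothelial sum of 947 CPM is highest.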

How the data were processed

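The authors deposited whole-number raw read counts per gene symbol and, in a second table, FPKM values scaled for depth and length. The submitters' processing notes list the build mm9, Cufflinks 2.2.1, STAR 2.5 and bcl2fastq 2.18 without saying what each did. Which program counted the reads, and on which annotation, is not given in the sources used here. Per the labels' protocols, cDNA was made with SMART-Seq v4 from 2 ng of RNA, a chemistry that does not mark strand, so overlapping antisense genes cannot be told apart. Totals ran from 3492391 to 9727489 counts, and a floor of 3 counts is 0.322 to 0.881 CPM in a library.

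Counts were filtered with filterByExpr and scaled with TMM, and 10626 genes were compared with edgeR 4.0.16 (R 4.3.3; two-sided quasi-likelihood test, Benjamini-Hochberg threshold 0.05). Scripts were tested on simulated data. Folds divide pooled counts by pooled TMM-adjusted library sizes, and 95% intervals are exact binomial. FPKM served for levels between genes and, with limma 3.58.1, as an alternative with pseudocounts of 1 and 0.1, beside DESeq2 1.42.0. The 31 genes and all lists were chosen with earlier results of these data known. Named are the 31 genes and, of each further list, the 3 calls of smallest p in each direction, or the 2 genes of highest mean CPM where no gene was called, apart from items that are not reported here. Tmem27 is Cltrn in the RefSeq promoter table, whose build differs from mm9, so no deposited value was tied to its coordinates. Transcript lengths are medians over protein-coding GENCODE transcripts with a curated RefSeq mRNA, or the longest. The labels give no batch. Figures were drawn with matplotlib 3.10.9.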

Additional observations from a re-analysis of the deposited data

How the results depend on the processing

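No paired analysis was possible because the groups share no replicate number. Over all genes, 832 were higher and 627 lower in kidney. DESeq2 called 995 lower, and limma-trend called 468 higher on log2(FPKM + 1) and 543 on log2(FPKM + 0.1). Leaving out 1 library gave 260 to 1569 higher and 179 to 1215 lower, 12 to 23 of the 31 genes higher and 0 to 1 lower, 10 to 36 further tubule genes higher and 0 to 2 lower, and 3 to 6 injury genes higher and 0 to 1 lower. Limma-voom called 13 of the 31 genes higher. Summing spleen and marrow 24 and 26 into 1 library, chosen after seeing the data, gave 299 higher and 201 lower, 13 further tubule and 3 injury genes higher, and 0 of the 31 lower. The sum of the 31 genes in kidney 22 was 2.28 times that in kidney 7, and 2.09 by library size, 1.70 in FPKM and 2.79 without Napsa (chosen after seeing the data). The ratio of kidney 8 to kidney 7 was 0.540, and 0.514, 0.447 and 0.426 in the same settings. The proximal share in kidney 7, 8 and 22 was 63.1%, 70.2% and 64.1% in FPKM, 94.4%, 97.8% and 91.9% with the most abundant gene of each segment left out, 52.9%, 60.7% and 58.7% without genes expressed outside the tubule (Atp1b1, Gpx3, Napsa, Fbp1 and Aqp1) and 68.6%, 74.8% and 72.5% without Napsa. Thick limb genes as a share of the proximal sum were 0.152%, 0.142% and 0.293% in FPKM, 0.979%, 0.710% and 1.44% without Napsa, and 0.872% and 1.93% in kidney 7 and 22 without Gpx3. The distal share was 1.26% in kidney 8 in FPKM, 2.59%, 1.88% and 2.68% without Napsa, and 2.31%, 1.19% and 3.62% without Gpx3. Of 169 alternatives for 13 named further genes, 151 kept direction and side of the threshold, 17 lost the call, and 1 gained it (Scnn1a without kidney 22, log2 fold change -1.26). The causes were not tested. Depth limits genes near the floor, such as Slc12a1, Calb1 and Aqp2.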
